A study of Homo sapiens with 8 samples.

Results

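The genes examined were ESRP1, ESRP2, RBFOX2, QKI and CELF1, 5 RNA-binding proteins that set the splicing programmes of epithelial and mesenchymal cells. Their members in the data were all skipped-exon events, each an exon with its neighbour on either side, that carried the symbol of these genes. There were 48 such events over 34 exons among 82355 events in MCF10A, 46 over 34 exons among 98244 in HMLE TWIST, and 62 over 41 exons among 123924 in either line. RNA was sequenced from 8 libraries in 4 groups of 2 biological replicates. MCF10A, a line of non-tumorigenic breast epithelial cells, and HMLE TWIST, immortalised breast epithelial cells with an integrated retroviral vector for the transcription factor TWIST, were each given the solvent DMSO or emetine at 10 µM for 24 h. The lines differ in origin as well as in TWIST, so a difference between them cannot be assigned to TWIST, and whether either line was a clone is not given in the sources used here. The series concerns compounds that act on alternative splicing through RNA G-quadruplexes.

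ESRP1 and ESRP2 are paired epithelial regulators that bind GU-rich sequence and keep epithelial exons in transcripts such as those of FGFR2, CD44 and ENAH. Their loss accompanies the epithelial-mesenchymal transition, in which transcription factors such as ZEB1 and TWIST1 repress epithelial genes. RBFOX2, which binds GCAUG, and QKI, a STAR-family protein that binds ACUAA, act on many of the same targets and are known as regulators of mesenchymal splicing. CELF1 binds GU-rich elements and acts both in splicing and in the decay and translation of mRNA. Emetine blocks translation elongation, on which nonsense-mediated decay, the removal of transcripts with early stop codons, depends.

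The exons that carried the results are printed here, 5′ to 3′ on the transcript strand, so that the lengths, reading frames and stop codons named below can be seen. They were read from GENCODE 29 transcripts that share the exon length and both intron lengths of the event, or, for CELF1, the exon length and 1 of the intron lengths (the 72-nt CELF1 exon named below was placed in the same way), while positions are those of the authors' tables in GRCh37. In RBFOX2, on the minus strand of chromosome 22, the 40-nt exon at chr22:36152152-36152191 and the 43-nt exon at chr22:36148660-36148702 are coding alternatives of like length, and the 93-nt exon at chr22:36164304-36164396 codes for part of the RNA recognition motif. In ESRP2 the 133-nt coding exon lies at chr16:68266274-68266406 on the minus strand, and the annotated transcripts that skip it are a nonsense-mediated decay target and a retained-intron transcript. In QKI, on the plus strand, the first 30 bases are given of the 171-nt exon at chr6:163878413-163878583, whose inclusion is annotated as a decay target, with its stop codon in capitals. A second QKI window shows, in capitals, GCATG, the RBFOX core motif, at position 50 of that exon. For CELF1, on the minus strand, the coding end of the 152-nt exon at chr11:47521005-47521156 is given from its start codon, in capitals.
RBFOX2 40-nt exon: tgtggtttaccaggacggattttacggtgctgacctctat
RBFOX2 43-nt exon: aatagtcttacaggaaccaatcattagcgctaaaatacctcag
RBFOX2 93-nt exon: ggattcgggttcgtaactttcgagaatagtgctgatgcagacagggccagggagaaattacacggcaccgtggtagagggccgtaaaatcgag
ESRP2 133-nt exon: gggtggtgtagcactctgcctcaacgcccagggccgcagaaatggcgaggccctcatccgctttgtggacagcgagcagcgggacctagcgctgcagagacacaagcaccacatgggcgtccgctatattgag
QKI 171-nt exon, start: ttgTGActtcttgccacggtgaactactat
QKI 171-nt exon, motif window: ctggtgtgttggaGCATGgcatttgtcttg
CELF1 152-nt exon, coding end: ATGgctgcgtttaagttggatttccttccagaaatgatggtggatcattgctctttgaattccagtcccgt

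The GCATG motif occurred 1 time on the transcript strand of the QKI exon and 0 times on the other strand. Of 1126 internal exons of 171 nt in GENCODE 29, 15.5% held it on the transcript strand and 16.5% on the other. Such a match is a description of the letters and not a binding site.

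Depth was similar across the series, from 78412292 to 91259363 junction reads per library, added up over events, so that a read shared by several events is counted more than 1 time. The labelled epithelial type was checked against marker lists with the junction reads of genes listed in both lines, summed and scaled between libraries. Of 26 epithelial markers, 9 could be tested between the untreated lines and 7 were lower in HMLE TWIST (the summed level was 27770 and 26030 in the MCF10A libraries and 811 and 1169 in those of HMLE TWIST). CGN and KRT8 were not called, and 8 further markers, among them KRT5, KRT14 and ELF3, had events in the MCF10A table alone. CDH1 and TJP3 had events in both lines but none in common, so they could not be tested. Of 22 mesenchymal markers, 12 could be tested and 11 were higher in HMLE TWIST, including TWIST1, ZEB1, ZEB2 and VIM (summed level 27317 and 29779 against 418110 and 429115), and TCF4 was not called. The epithelial markers EPCAM, GRHL2, OVOL1, CLDN4, KRT18, KRT19 and DSP had events in neither line. A gene without a listed skipped-exon event may still be expressed. Of the markers that could be tested, most epithelial ones were thus lower and most mesenchymal ones higher in HMLE TWIST, whose label names an epithelial type. Of 7 blood and endothelial markers, none had an event in MCF10A, and in HMLE TWIST PTPRC had 0 to 2 reads per library while CD68, which is not restricted to blood cells, had 4423 to 9447. How far the state of the lines accounts for the differences below was not tested.

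The epithelial pair was present in MCF10A and close to undetected in HMLE TWIST. In the deepest ESRP1 event, the 151-nt exon at chr8:95704905-95705055, the untreated MCF10A libraries held 1046 and 943 reads and those of HMLE TWIST 0 and 2. In the ESRP2 event listed in both lines, that of the 133-nt exon, the counts were 661 and 667 against 0 and 3. For both genes the untreated lines lay far apart.

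Since HMLE TWIST held so few reads, the size of the difference is given as a ratio of scaled reads with its counting interval. The ratio of MCF10A to HMLE TWIST was 910 for ESRP1 (95% interval 252 to 7523, exact, counting error only) and 405 for ESRP2 (138 to 1968). In bulk RNA, fewer cells of a type and less RNA per cell cannot be told apart. Both genes were called lower in HMLE TWIST by limma-voom on the summed reads of each gene, where a call needs an adjusted p under 0.05 and a log2 fold change of at least 1. The adjusted p was 3.42e-13 for ESRP1 and 4.30e-12 for ESRP2, with n = 2 libraries per group. Of the 10100 genes tested, 24.9% were called and 14% were called lower. ESRP1 and ESRP2 were lower in each of the 2 HMLE TWIST libraries than in either MCF10A library. The share of all genes so separated is not given here.

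RBFOX2 and QKI, the regulators tied to the mesenchymal programme, and CELF1 were read in both lines. The deepest RBFOX2 event held 861 and 926 reads in untreated MCF10A and 1551 and 1516 in HMLE TWIST. Over all 7 events listed in both lines, the scaled reads of RBFOX2 were 2434 ± 124 in MCF10A and 4564 ± 227 in HMLE TWIST (mean ± SD, n = 2). The log2 fold change of 0.91 (SE 0.13, limma-voom adjusted p = 1.47e-06) passed the test but lay under the fold threshold. RBFOX2 is therefore not counted as called, although HMLE TWIST held 1.87 times as many reads.

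QKI and CELF1 differed less between the lines. QKI scaled reads were 5706 ± 129 in MCF10A and 6774 ± 222 in HMLE TWIST, a log2 fold change of 0.25 (SE 0.12) with a limma-voom adjusted p of 0.0892. CELF1 scaled reads were 3849 ± 117 and 3322 ± 223, a log2 fold change of -0.21 (SE 0.13) with an adjusted p of 0.173 by limma-voom. The libraries of the lines did not overlap for either gene, yet neither passed the test, and the share of all genes without overlap is not given here. Of the 5 regulators, the 2 epithelial ones were thus called lower in HMLE TWIST and none was called higher.

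**Figure D1:**
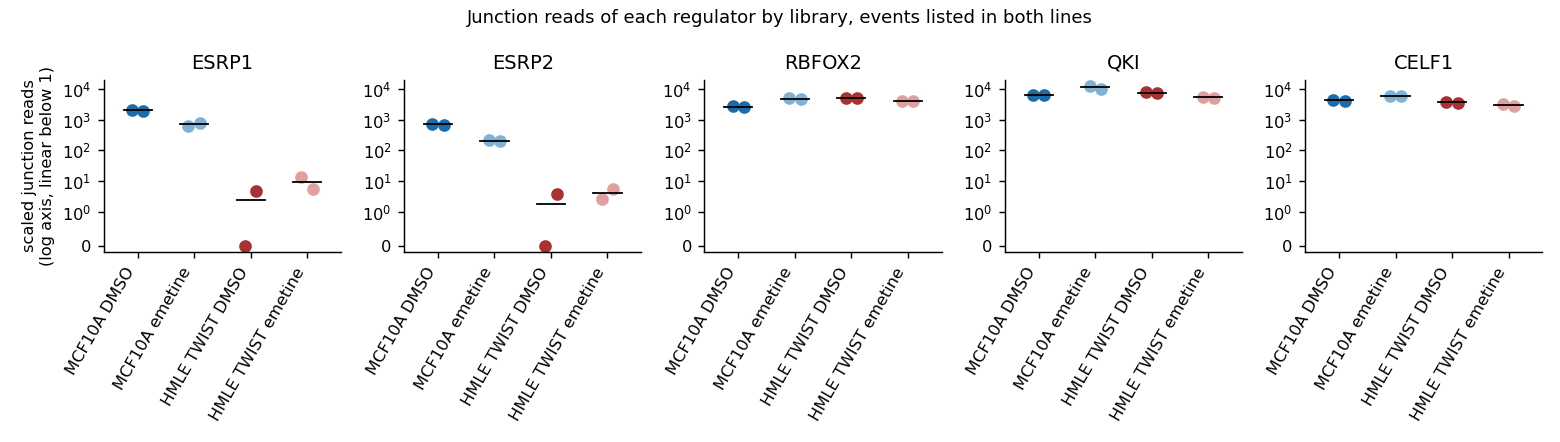
Scaled junction reads of ESRP1, ESRP2, RBFOX2, QKI and CELF1 in the 8 libraries, summed over the events listed in both lines, on a log axis that is linear below 1; points are libraries and lines group means. The ESRP1 and ESRP2 libraries of HMLE TWIST sit at 0 to 12.9 scaled reads, while those of MCF10A sit at 197 or more.

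The junction reads of the regulators in MCF10A were compared between emetine and DMSO. Those of ESRP1 and ESRP2 fell, and those of RBFOX2, QKI and CELF1 were higher, short of the fold threshold and not called. Counted from the lowest log2 fold change, RBFOX2, QKI and CELF1 ranked 8870, 8727 and 7922 among 11378 genes. Over its 4 events ESRP1 had 3376 and 3352 reads with DMSO and 1206 and 1526 with emetine. Over its 4 events ESRP2 had 2538 and 2546 reads with DMSO and 875 and 830 with emetine. Neither gene's treated libraries overlapped its controls, and the share of all genes without overlap is not given here.

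On the scaled reads, ESRP1 went from 3553 ± 69.3 to 1295 ± 236 and was 2.77-fold lower (log2 fold change -1.47, SE 0.15, limma-voom adjusted p = 2.18e-05, n = 2 per group). ESRP2 went from 2685 ± 32.9 to 807 ± 16.5 and was 3.33-fold lower (log2 fold change -1.73, SE 0.13, limma-voom adjusted p = 4.16e-06). These 2 of 5 regulators were called, against 37.8% of the 11378 genes tested, of which 18.1% were called lower. The share of the members called is near that of all genes. Of the 19 epithelial markers tested in MCF10A, 3 were called lower with emetine (CDH1, CLDN7 and ST14) and 3 higher (CGN, CLDN1 and ELF3). Their summed scaled level was 414873 and 408719 with DMSO and 237846 and 248003 with emetine, and their median log2 fold change was -0.60, against 0.0021 over all genes. The part of cell state in the ESRP values was not tested.

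RBFOX2 had 4039 and 3995 reads over its 11 events with DMSO and 8910 and 7999 with emetine. Its log2 fold change was 0.91 (SE 0.11, limma-voom adjusted p = 5.84e-05). The rise was not shared by every event. That of the 51-nt exon at chr22:36334895-36334945 fell, from 231 and 218 reads with DMSO to at most 153 in either emetine library. The event of the 120-nt exon named below rose from 184 and 155 reads to 668 and 542. QKI had 6981 and 6966 reads over 10 events with DMSO and 16397 and 12228 with emetine, a log2 fold change of 0.86 (SE 0.13) with an adjusted p of 3.56e-04 by limma-voom. The treated QKI libraries differed by more than the controls did, and without the second emetine library QKI was called, at 1.06.

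CELF1 had 6005 and 5828 reads over 19 events with DMSO and 9940 and 10052 with emetine. Its log2 fold change was 0.60 (SE 0.10, limma-voom adjusted p = 5.17e-04). In all 3 genes the emetine libraries lay above both controls. The share of all genes with such separation is not given here, and among events in this comparison it was 67.4%. Scaling by total reads, a choice made after the data were seen, moved the median of all genes by 0.12 in MCF10A and left each sign in place, and RBFOX2 then passed the fold threshold at 1.03.

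In HMLE TWIST none of the regulators was called with emetine by limma-voom or limma-trend, against 36.2% of 11477 genes, and 1, QKI, had an unadjusted p under 0.05 in limma-voom. ESRP1 held 0 and 4 reads with DMSO and 15 and 6 with emetine over its 2 events, and ESRP2 held 0 and 3 against 3 and 6 in its single event, too few to be tested. RBFOX2 had 11687 and 11257 reads over 17 events with DMSO and 12445 and 10820 with emetine, which overlap as raw counts. After scaling its log2 fold change was -0.35 (SE 0.20, limma-voom adjusted p = 0.127). As in MCF10A, RBFOX2 events moved apart, with raw reads of 485 and 510 against 370 and 338 for the 51-nt exon. For the 120-nt exon they were 184 and 178 against 375 and 287.

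QKI had 7424 and 6587 reads with DMSO and 7032 and 5718 with emetine, a log2 fold change of -0.51 (SE 0.21, limma-voom adjusted p = 0.0372). CELF1 had 5303 and 4487 reads with DMSO and 5604 and 4522 with emetine, a log2 fold change of -0.33 (SE 0.22, limma-voom adjusted p = 0.201). Scaling by total reads moved the median of all genes in HMLE TWIST by 0.38, and RBFOX2 then stood at 0.02, CELF1 at 0.05 and QKI at -0.14. Beside these, 13 of 21 mesenchymal markers tested were called lower with emetine and 0 higher in this line, and their part in the values was not tested. The sign for RBFOX2 and CELF1 in HMLE TWIST thus depends on the scaling, and none of the 3 was called under either.

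The response to emetine itself differed between the lines for RBFOX2 and QKI. In limma-voom with a term for line by treatment on the events listed in both, a test added after the data were seen, the log2 difference was -1.19 for RBFOX2 (SE 0.20, adjusted p = 9.79e-04) and -1.34 for QKI (SE 0.22, adjusted p = 8.04e-04). CELF1 had -0.83 (SE 0.20, adjusted p = 0.00880), under the fold threshold. Under scaling by total reads these became -1.04, -1.20 and -0.69, with the sign kept.

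ESRP1 and ESRP2 were also called, at 3.89 (adjusted p = 0.0126) and 3.23 (adjusted p = 0.0266) by limma-voom. These rest on 0 to 15 reads per HMLE TWIST library and were lost without the first DMSO library of HMLE TWIST, at 2.24 (adjusted p = 0.113) and 1.76 (adjusted p = 0.213). ESRP1 was also lost without the first emetine library of HMLE TWIST, at 3.35 (adjusted p = 0.0535), and ESRP2 without the second, at 2.73 (adjusted p = 0.125). Of the 5 members 4 were called, against 20% of 10384 genes.

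**Figure D2:**
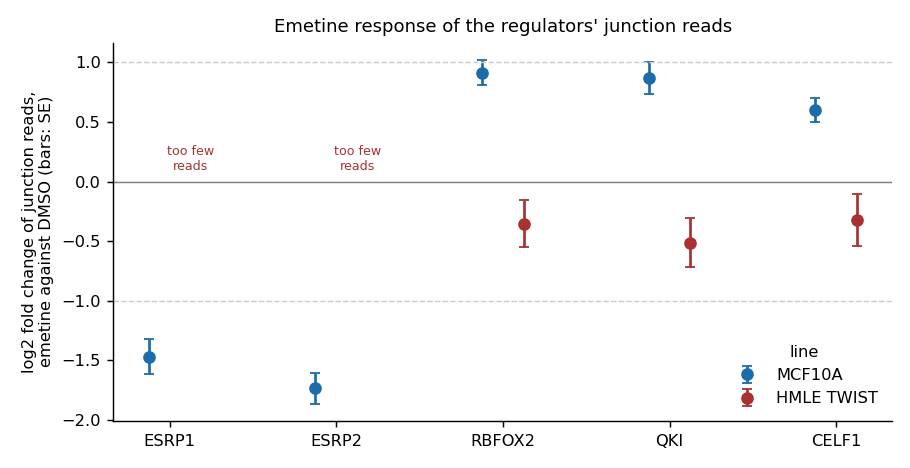
Log2 fold change of junction reads, emetine against DMSO, for the 5 regulators in MCF10A and HMLE TWIST, with standard errors; dashed lines mark the fold threshold of 1. ESRP1 and ESRP2 lie at -1.47 and -1.73 in MCF10A and had too few reads in HMLE TWIST, and RBFOX2, QKI and CELF1 lie above 0 in MCF10A and below 0 in HMLE TWIST, where the sign of RBFOX2 and CELF1 turns when libraries are scaled by total reads.

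The splicing of the regulators' own exons was measured as the inclusion level, the length-corrected share of junction reads that include the exon, from 0 to 1. An event was tested where every library had at least 20 reads and the rarer form at least 10 reads over the fit, so events read in one form alone dropped out. In MCF10A 23 of 48 member events passed, 5 had under 20 reads in a library and 20 had too few reads of the rarer form. Of those 20, 19 had a level of at least 0.95 in every library. In HMLE TWIST 15 of 46 passed, 8 had too few reads, the 2 of ESRP1 and the 1 of ESRP2 among them, and 23 had too few of the rarer form, of which 21 stood at 0.95 or above. Such exons were read as near-constitutive.

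Between the untreated lines 11 member events could be tested, 6 of CELF1, 3 of RBFOX2 and 2 of QKI, and none of ESRP1 or ESRP2. A quasi-binomial model called 1 of them, against 6.49% of 19301 events, where a call needs an adjusted p under 0.05 and a change of at least 0.1. limma on the log2 odds of inclusion called 0 of the 11 (3 at an unadjusted p under 0.05) and 36 events in all. In 7 of the 11 the libraries of the lines were fully separate, against 55.1% of all events, and 2 of the 11 had an adjusted p under 0.05 at any size in the quasi-binomial model, against 15.6%. The median absolute change was 0.0442 over the 11 and 0.0165 over all events tested.

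The event called was that of the CELF1 152-nt exon whose neighbour over a long intron is the exon at chr11:47574544-47574669. Its inclusion level was 0.470 and 0.468 in untreated MCF10A and 0.297 and 0.146 in untreated HMLE TWIST. The groups did not overlap, and the HMLE TWIST libraries lay far apart. The change was -0.247 (quasi-binomial adjusted p = 1.93e-05, n = 2 per group), but limma gave an adjusted p of 0.211, and without the second HMLE TWIST library the change of -0.172 missed the threshold (adjusted p = 0.0520 in the quasi-binomial model). With the nearer 72-nt exon at chr11:47522413-47522484 as neighbour, the same exon had levels of 0.905 and 0.863 against 0.808 and 0.876, which overlap. Both events count the reads of the junction on the exon's other side, which do not tell the neighbours apart. The events are therefore not independent. The junction to the far exon itself held 21 and 14 reads in untreated MCF10A and 5 and 1 in untreated HMLE TWIST.

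RBFOX2 skipped its 93-nt RNA-recognition exon more often in HMLE TWIST, by a small amount. The inclusion level was 0.993 and 0.984 in untreated MCF10A and 0.960 and 0.929 in untreated HMLE TWIST. The change was -0.0442 (quasi-binomial adjusted p = 6.42e-04, limma adjusted p = 0.167), under the 0.1 needed for a call. In all 4 libraries of HMLE TWIST, treated or not, the level was below that of all 4 libraries of MCF10A. Its length is a multiple of 3. Without the second DMSO library of HMLE TWIST the change was -0.0286 (adjusted p = 0.0894 in the quasi-binomial model).

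The other tested exons of RBFOX2 and QKI lay close together in the untreated lines. The RBFOX2 40-nt exon stood at 0.872 and 0.919 in MCF10A and 0.877 and 0.894 in HMLE TWIST, which overlap. Its 43-nt alternative, with 30 to 154 reads per library, stood at 0 to 0.0724 in all 8 libraries, so the 40-nt exon was the one mostly read in both lines. The QKI 143-nt exon at chr6:163876311-163876453, its tested event with the largest change, stood at 0.992 and 0.988 against 0.971 and 0.986 (change -0.0119, quasi-binomial adjusted p = 0.273).

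**Figure D3:**
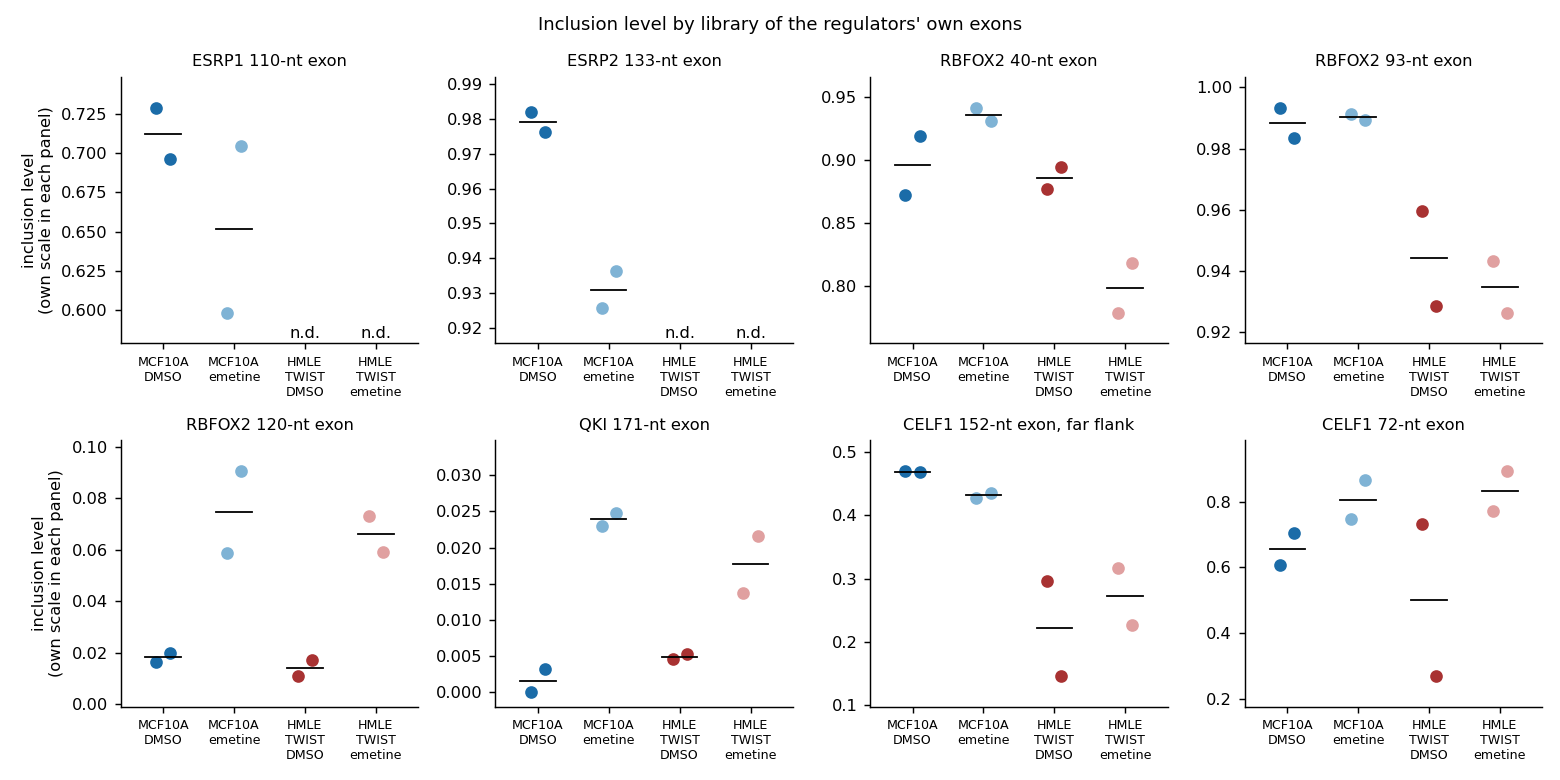
Inclusion level of 8 exons of the regulators in each library, with a separate vertical scale in each panel; points are libraries, lines group means, and n.d. marks groups without enough reads. The CELF1 152-nt exon lies at 0.470 and 0.468 in untreated MCF10A and at 0.297 and 0.146 in untreated HMLE TWIST, and the RBFOX2 40-nt exon is lowest in HMLE TWIST with emetine, at 0.779 and 0.819.

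With emetine in MCF10A, none of the 23 member events was called by the quasi-binomial model or by limma, against 13.1% of 25522 events in the former. At any size, 3 of the 23 had an adjusted p under 0.05 in that model (13%), against 33.5% of all events. Without adjustment, 6 of the 23 had a p under 0.05 by the quasi-binomial model, and 5 had one by limma. Treated and control libraries were fully separate in 12 of the 23, against 67.4% of all events. The median absolute change was 0.0223 over the 23 and 0.0239 over all events. In the authors' deposited table, 5 of the 48 events had an FDR under 0.05 against 13.3% of all events there, and 0 also moved by 0.1, against 6.93%.

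The 4 events of ESRP1 in MCF10A had changes from -0.0607 to -0.00889. The largest was in the 110-nt exon at chr8:95709080-95709189, part of which is coding, with levels of 0.729 and 0.696 with DMSO and 0.599 and 0.705 with emetine. The groups overlapped (quasi-binomial adjusted p = 0.311). ESRP2 skipped its 133-nt exon slightly more with emetine, with levels of 0.982 and 0.976 against 0.926 and 0.936. The change was -0.0482 (quasi-binomial adjusted p = 0.0478, limma adjusted p = 0.0464) and the groups did not overlap. Without any 1 of the 4 libraries the adjusted p ran from 0.0914 to 0.242. The skipping reads were few, 6 and 8 with DMSO and 9 and 7 with emetine, while the inclusion reads went from 655 and 659 to 224 and 206. The skipped form, annotated in part as a decay target, thus gained in share. Its raw reads stayed few, while the inclusion reads and those of the gene as a whole fell. What lay behind this was not tested. The other 3 ESRP2 events stood above 0.98 in every MCF10A library.

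RBFOX2 included a 120-nt exon at chr22:36232367-36232486, in the 5′ UTR of the 1 annotated transcript that holds it, more often with emetine in both lines. In MCF10A the level was 0.0166 and 0.0197 with DMSO and 0.0586 and 0.0905 with emetine (change 0.0564, quasi-binomial adjusted p = 0.00886, limma adjusted p = 0.0457). In HMLE TWIST it was 0.0110 and 0.0171 against 0.0730 and 0.0590 (change 0.0519, quasi-binomial adjusted p = 0.00565, limma adjusted p = 0.0314). In both lines the treated libraries lay above both controls, and in both the change stayed under 0.1. Without 1 library in MCF10A the adjusted p reached 0.132 in that model. The difference between the lines was -0.00450 (quasi-binomial adjusted p = 0.945).

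QKI included its 171-nt exon with the stop codon rarely, and more often with emetine. The level was 0 and 0.00318 in MCF10A with DMSO and 0.0230 and 0.0248 with emetine, from 563 to 1356 reads per library. The change was 0.0223 (quasi-binomial adjusted p = 5.21e-04, limma adjusted p = 0.0561). In HMLE TWIST the level was 0.00454 and 0.00533 against 0.0137 and 0.0217 (change 0.0128, quasi-binomial adjusted p = 0.0228, limma adjusted p = 0.0533). As with the RBFOX2 5′ UTR exon, both treated libraries lay above both controls in each line, and the changes were far under 0.1. Without the first or the second emetine library of MCF10A the adjusted p was 0.0910 or 0.112 in the quasi-binomial model.

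In HMLE TWIST none of the 15 member events tested with emetine was called by the quasi-binomial model or by limma, against 14.1% of 30290 events in the former. At any size, 4 of the 15 had an adjusted p under 0.05 in that model, 26.7% against 36.0% of all events. Without adjustment, 6 of the 15 had a p under 0.05 by the quasi-binomial model, and 3 had one by limma. Treated and control libraries were fully separate in 9 of the 15, against 69.9% of all events. The median absolute change was 0.0158 over the 15 and 0.0256 over all events. By the authors' deposited table, 3 of 46 events had an FDR under 0.05, against 14.7% of all events there, and 0 also moved by 0.1, against 7.59%.

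For the RBFOX2 40-nt exon the response to emetine was called different between the lines by the quasi-binomial model but not by limma. In MCF10A its level was 0.872 and 0.919 with DMSO and 0.941 and 0.931 with emetine, and in HMLE TWIST it was 0.877 and 0.894 against 0.779 and 0.819. In MCF10A the change of 0.0404 did not pass the test (quasi-binomial adjusted p = 0.0662, limma adjusted p = 0.300). In HMLE TWIST the change of -0.0868 passed it in the quasi-binomial model (adjusted p = 0.00655) but not in limma (adjusted p = 0.164), and lay under the 0.1 needed for a call. The authors' rMATS FDR for this event was 0.0351 in MCF10A and 9.14e-05 in HMLE TWIST, also at changes under 0.1. The difference of the changes was -0.127 (quasi-binomial adjusted p = 0.00335), which was the 1 call among 14 member events, against 2.81% of 19025 events. limma gave an adjusted p of 0.271 for it. Without the first DMSO library of MCF10A, the lower of the pair, it was -0.104 and not called (adjusted p = 0.175 in the quasi-binomial model). The events of the 40-nt and 43-nt exons hold the same skipping reads, so they are not independent.

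QKI also had a second small change in HMLE TWIST, in the 144-nt exon at chr6:163956014-163956157, with levels of 0.997 and 1 with DMSO and 0.977 and 0.989 with emetine (change -0.0158, quasi-binomial adjusted p = 0.0291). Among CELF1 events, 7 could be tested in HMLE TWIST and 8 in MCF10A, and none reached an adjusted p under 0.05 in the quasi-binomial model. The 72-nt exon between those at chr11:47510389-47510576 and chr11:47574544-47574669 had an rMATS FDR of 0.00318 in HMLE TWIST. Its level there was 0.0932 and 0.0331 with DMSO and 0.154 and 0.146 with emetine (change 0.0868, quasi-binomial adjusted p = 0.0554, limma adjusted p = 0.145). In MCF10A the CELF1 105-nt exon at chr11:47493550-47493654 went from 0.849 and 0.896 with DMSO to 0.745 and 0.787 with emetine (change -0.106, quasi-binomial adjusted p = 0.133). The widest spread was in the event of the 72-nt 5′ UTR exon of CELF1 whose neighbour is the exon at chr11:47528410-47528449, read 31 to 73 times per library. Its level was 0.733 and 0.269 in HMLE TWIST with DMSO and 0.773 and 0.892 with emetine (change 0.332, quasi-binomial adjusted p = 0.0861). The DMSO libraries differed widely, and the first of them lay close to the treated pair. Without that library the change was 0.564 and was called (adjusted p = 0.00125 in the quasi-binomial model), and without the other DMSO library it was 0.0995 (adjusted p = 0.533).

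**Figure D4:**
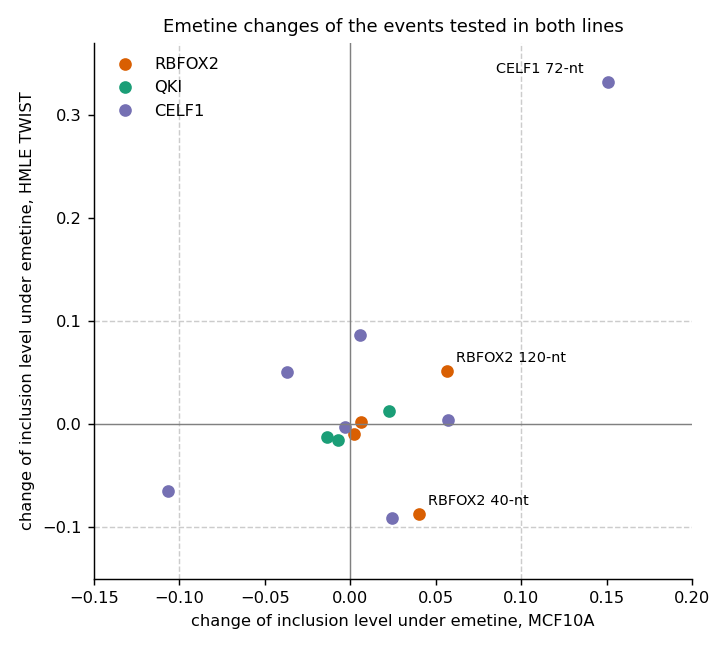
Change of inclusion level with emetine in MCF10A (horizontal) and in HMLE TWIST (vertical) for the 14 events of RBFOX2, QKI and CELF1 tested in both lines; dashed lines mark 0.1 in either direction. The RBFOX2 40-nt exon lies at 0.0404 and -0.0868, and the CELF1 72-nt exon, at 0.151 and 0.332, has 31 reads in its shallowest HMLE TWIST library.

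Beside these genes stood a list of 36 genes known as targets of epithelial-mesenchymal splicing. It was chosen with earlier results of these data known, so its share of calls is not an independent test. The quasi-binomial model called 58 of its 171 events (33.9%) between the untreated lines, against the 6.49% of all events. Of the calls, 26 were higher and 32 lower in HMLE TWIST. They fell in 29 of the 35 genes tested, and events of a gene share reads, so the events are not independent. In the whole comparison limma called 36 events. The exons with the largest changes were in CD44 (level 0.945 ± 0.0112 in MCF10A and 0.0651 ± 0.0278 in HMLE TWIST), ARHGEF11 (0.0725 ± 0.00294 and 0.938 ± 0.00583), CLSTN1 (0.159 ± 0.00717 and 0.957 ± 8.67e-04) and NFYA (0.0824 ± 0 and 0.878 ± 0.00247), as mean ± SD of n = 2. FGFR2, an ESRP target, had events in the MCF10A table alone. The median absolute change of the list was 0.0586, compared with 0.0165 over all events. Of 32 other splicing regulators, chosen in the same way, 16 had events that could be tested between the untreated lines. Of their 61 events 5 (8.20%) were called, 1 higher and 4 lower.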

How the data were processed

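RNA was measured in 8 polyA RNA-seq libraries. Reads were aligned with STAR 2.5.3a to GRCh37, per the submitters' processing notes. Per the file headers, the deposited tables, 1 per line, are rMATS skipped-exon output. They hold junction counts as pairs of replicates, p-values and FDRs, and an inclusion-level difference, a score that the authors gave as first minus second group. The rMATS version is not given in the sources used here. Which group is DMSO and which emetine was read from the order of words in each table's name. Inclusion levels were recomputed from counts and effective lengths, and their differences matched the deposited ones to within 0.00142.

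Events were tested in R 4.3.3 with a quasi-binomial model whose dispersions were moderated with limma 3.58.1 (squeezeVar) and floored at 1. limma on log2 odds with 0.5 added to each count was an alternative. Junction reads, summed per gene over its events, were tested with limma-voom and median-of-ratios scaling where at least 2 libraries had 10 reads. This replaced the negative-binomial count model first planned, for a reason of file format and not of statistics. Each deposited cell holds a pair of values, which was split into a count for each library. All tests were two-sided, with Benjamini-Hochberg adjustment over all events or genes of a fit. With 2 libraries per group an exact permutation test cannot reach 0.05, so p-values rest on spread shared across events or genes. The dispersion shared was 1.49 to 1.91. Both models were tested on simulated data.

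Named were the 5 genes, their called events, and otherwise the tested event with the largest change. Events with an adjusted p under 0.05 but no call, the 43-nt RBFOX2 exon, the 105-nt CELF1 exon in MCF10A and the nearer junction of the CELF1 152-nt exon were named after their values were seen. Of the target list, the 4 genes with the largest called changes were named. The genes and lists were chosen with earlier results of these data known. After results were seen, the filters of the leave-one-out read fits and of the line-by-treatment event fit were changed, and the line-by-treatment read test and total-read scaling were added. Intervals cover counting error only.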

Additional observations from a re-analysis of the deposited data

Results flagged for a closer look

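The term for line by treatment, the emetine response in HMLE TWIST minus that in MCF10A, had an adjusted p under 0.05 for 1 event and for the junction reads of the 5 genes, of which CELF1 lay under the fold threshold and was not called. For the RBFOX2 40-nt exon the change of inclusion level in HMLE TWIST minus that in MCF10A was -0.1272. For junction reads the log2 difference was 3.89 for ESRP1, 3.23 for ESRP2, -1.19 for RBFOX2, -1.34 for QKI and -0.83 for CELF1, by limma-voom. The ESRP values rest on at most 15 reads per HMLE TWIST library, and without the first DMSO library of HMLE TWIST neither was called (limma-voom adjusted p = 0.113 for ESRP1 and 0.213 for ESRP2).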

How the results depend on the processing

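ESRP splicing could not be measured in HMLE TWIST, and events of a gene share reads. Junction reads stand in for expression only in part, since each table lists its own events. Each of the 4 event comparisons changed its count of member events called under some alternative. In MCF10A with emetine it went from 0 to 1 with no length correction (the RBFOX2 120-nt exon, at 0.1028), and it was 0 without any 1 library. In HMLE TWIST with emetine it ran from 0 to 3 over the fits without 1 library, the 3 being CELF1 events without the first DMSO library (0.1169, 0.1255 and 0.5636). Between the untreated lines it was 0 under limma and with a replicate block, and ran from 0 to 1 without 1 library (0 without the second HMLE TWIST DMSO library). For the difference between lines it was 0 under limma, with no length correction (-0.0988 for the RBFOX2 40-nt exon) and with a replicate block, and ran from 0 to 1 without 1 library (0 without the first MCF10A DMSO library). With the rarer form counted over both lines, added after the data were seen, 20 member events were tested and 1 was called.

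The replicate block took the first listed value as replicate 1, and the numbers are not known to pair the libraries. In it the adjusted p was 0.118 for the CELF1 152-nt exon between lines and 0.304 for the RBFOX2 40-nt exon. For junction reads, the count of genes called in HMLE TWIST with emetine ran from 0 to 1 without 1 library, the 1 being ESRP1, at 3.99 without the second DMSO library and 2.95 without the second emetine library. The count for the difference between lines ran from 2 to 4, and was 2 without the first HMLE TWIST DMSO library. In MCF10A with emetine it ran from 2 to 3, and between the untreated lines it was 2 in each. A second negative-binomial count model was not run, and limma-trend was added in its place after the data were seen. limma-trend, dropping the low-count filter, the deepest event per gene and the block left these counts of genes called within 1.5 times.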
